A study of Rattus norvegicus with 48 samples.

Results

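The miR-7 family was followed through 48 small RNA libraries of rat brain. Its 5 names in the deposited table were the mature miR-7a-5p and miR-7b and the precursors (hairpins) mir-7a-1, mir-7a-2 and mir-7b, out of 1063 names in all (2 of 612 mature and 3 of 451 precursor names). They were chosen by name, with earlier results of these data known. Deposited lines that shared a name were added up, which concerned miR-7a-5p (2 lines). All 5 names were above 0 in each of the 48 libraries. The libraries came from the amygdala (24) and the ventral striatum (24) of Long Evans rats at postnatal day 42. The dams had received ethanol [E] or, as the control [C], saline during pregnancy. After weaning, the offspring were either socially-enriched [S], housed with rats of their own age and sex born to an untreated dam, or non-enriched [N], housed with littermates. Each of the 4 treatment groups had 6 libraries per region, 3 from females and 3 from males, and each library was made from RNA pooled from 3 rats, so that differences between single animals were not measured. Both regions were dissected from the same rats, so the libraries of the 2 regions are not from separate animals.

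miR-7 is an ancient miRNA that is abundant in neuroendocrine organs such as the pituitary and the pancreatic islets and in parts of the brain, where its known targets include the mRNA of alpha-synuclein. A hairpin is cut into a duplex of a 5p and a 3p strand. One strand usually enters the Argonaute protein and pairs with mRNAs through its seed, and the other is mostly lost. In brain, miR-7 also binds the circular RNA Cdr1as, which carries many sites for it and which miR-671 directs to be cut.

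The mature sequences are shown because both names carried the same seed, and because reads of 1 can be told from the other by a single base. In each strand below the seed (bases 2 to 8 from the 5′ end) is in capitals, as given by RefSeq for the GRCr8 build.
miR-7a-5p: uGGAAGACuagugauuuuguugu
miR-7b: uGGAAGACuugugauuuuguugu
miR-7a-1-3p: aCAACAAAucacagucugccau
miR-7a-2-3p: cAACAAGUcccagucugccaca
The difference from miR-7a-5p to miR-7b is A10U, counted from 1 at the 5′ end, over a length of 23 bases. Of 693 distinct mature rat names in the RefSeq table, these 2 carry the seed GGAAGAC. The 3p strands are no members of the family as chosen here, but they differ between the 2 miR-7a hairpins, whereas the 5p strand does not.

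The hairpins are shown with their listed mature strands in capitals, because a miR-7a-5p read fits both of the first 2.
mir-7a-1: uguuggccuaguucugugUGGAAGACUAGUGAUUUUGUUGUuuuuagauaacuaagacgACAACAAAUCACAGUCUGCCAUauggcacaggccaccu
mir-7a-2: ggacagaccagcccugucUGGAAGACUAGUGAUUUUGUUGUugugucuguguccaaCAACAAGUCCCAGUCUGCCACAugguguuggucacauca
mir-7b: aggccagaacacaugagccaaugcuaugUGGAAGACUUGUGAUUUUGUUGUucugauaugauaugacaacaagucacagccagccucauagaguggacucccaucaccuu
In GRCr8, mir-7a-1 is at chr17:6278692-6278788 on the plus strand, inside the span of Hnrnpk, the gene of an RNA-binding protein. mir-7a-2 is at chr1:142215800-142215894 on the plus strand, inside the span of a long non-coding RNA gene, LOC120099863. mir-7b is at chr9:1167436-1167545 on the plus strand, inside the span of the ribosomal protein pseudogene Rpl35l3. Whether each lies in an exon or an intron was not read here, and the deposited values were made on an older build, Rn5.

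miR-7a-5p was among the most abundant mature miRNAs. Its mean over the 48 libraries was 11201 RPM (reads per 1000000 mature reads), which was 1.12% of the mature reads and rank 20 of 612. miR-7b had a mean of 1614 RPM, or 0.161%, and rank 66. On the separate precursor scale, mir-7a-1 had a mean of 13934 RPM (rank 18 of 451), mir-7a-2 8349 RPM (rank 30) and mir-7b 2883 RPM (rank 58). From the value of 1 read in each library, the libraries held 363140 to 1370400 mature reads, of which 3117 to 20756 were miR-7a-5p and 428 to 2933 were miR-7b. The 8 amygdala libraries with the fewest reads held 363140 to 622110.

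The mature and precursor signals were not independent readouts. The sum of mir-7a-1 and mir-7a-2 was 1.78 to 2.22 times the summed mature strands of both hairpins in each library (median 2.00). In that divisor miR-7a-5p was added to the other listed strand of each hairpin. For mir-7b the values were 1.53 to 2.01 times miR-7b (median 1.80). The mature and precursor scales each add up to 1000000. Over 111 hairpins with 1 line for each name, the median ratio of precursor to mature means was 0.938, and 18 of them had a higher ratio than mir-7b (1.79). A precursor value here counts short reads that align to the hairpin, so it is no measure of uncut hairpin.

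miR-7b followed miR-7a-5p closely. Their ratio was 0.117 to 0.198 in the 48 libraries (median 0.143), so that miR-7a-5p was always the main form. Over the 48 libraries the correlation of their log2(RPM + 1) values was 0.945, and that of their deviations from the means of the 16 cells of region, treatment and sex was 0.957. These points share libraries, and the 2 names share all but 1 base, so the correlations are a description. The mean ratio was 0.144 ± 0.0198 (SD, n = 24) in the amygdala, against 0.149 ± 0.0116 (SD, n = 24) in the ventral striatum (two-sided permutation test, p = 0.314). The medians were 0.140 and 0.148, and 6 of the 24 amygdala libraries lay above the ventral striatum median.

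**Figure D1:**
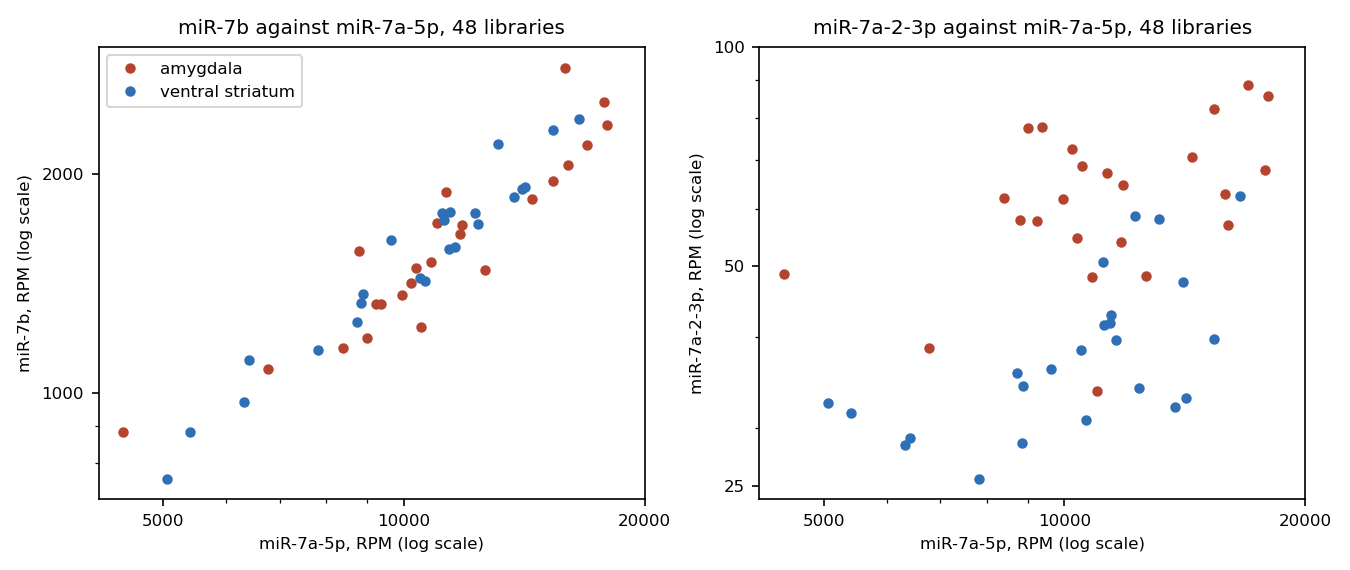
RPM of miR-7b (left) and of the 3p strand miR-7a-2-3p (right) against RPM of miR-7a-5p, on log axes, with 1 point per library (red, amygdala; blue, ventral striatum). Points of both regions lie along 1 band for miR-7b, with ratios of 0.117 to 0.198, while for miR-7a-2-3p most amygdala points (33.8 to 88.6 RPM) lie above those of the ventral striatum (25.5 to 62.4 RPM).

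The 5 names varied between libraries of the same group. miR-7a-5p spanned 4457 to 17959 RPM, a 4.03-fold range, and its SD within cells was 0.50 on the log2 scale. Among 82 mature names with a mean of at least 1000 RPM, 5 had a larger SD within cells, and their median SD was 0.24. miR-7b had an SD of 0.46, with 7 of the 82 names above it. For the precursors the SDs were 0.47 (mir-7a-1), 0.46 (mir-7a-2) and 0.42 (mir-7b), against a median of 0.25 over 100 names. The family thus spread more between pools of equal treatment than most names of such abundance, with at least 428 reads of each mature name in every library.

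Outside the family, the mature names most like miR-7a-5p over the 48 libraries, among 306 with a mean of at least 10 RPM, were miR-3099 (r = 0.710), miR-770-5p (r = 0.699), miR-300-3p (r = 0.666) and miR-6331 (r = 0.596). In deviations from the cell means they were miR-300-3p (r = 0.780), miR-3099 (r = 0.763), miR-770-5p (r = 0.731) and miR-1247-5p (r = 0.671). For miR-7b, miR-433-3p (r = 0.588) and, in the deviations, miR-653-3p (r = 0.713) came among the first 5 beside these. Among 282 precursors the nearest outside the family was mir-3099 for mir-7a-1 (r = 0.696) and mir-7b (r = 0.632), and mir-421 for mir-7a-2 (r = 0.671). mir-541 and mir-379 also came among the first 5 for mir-7a-1, mir-770 and mir-434-1 for mir-7a-2, and mir-421 and mir-541 for mir-7b. In the deviations, mir-539, mir-381, mir-760 and mir-300 joined them. The 2 lines of miR-434-5p, like those of miR-7a-5p, divided unequally between the 2 sets of libraries described next. Their ratio was 1.81 to 2.22 in set 1 and 1.26 to 1.53 in set 2. The part of this division in the likeness of mir-7a-2 to mir-434-1 and to other names was not tested.

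The deposited values split the libraries in 2 sets by how names with 2 lines divided their signal, and this touched the miR-7a precursors. The sets were defined on miR-181a-5p, which is no member, whose 2 lines had a ratio of 0.502 to 0.521 in set 1 and 0.682 to 0.777 in set 2. The ratio of the 2 lines of miR-7a-5p was 0.674 to 0.730 in set 1 and 0.456 to 0.531 in set 2, and all 48 libraries fell with their set. The ratio of mir-7a-2 to mir-7a-1 was 0.693 to 0.727 in set 1 and 0.471 to 0.533 in set 2. Of 19 other mature names with 2 lines, 15 showed no overlap between the sets. Within set 2, 8 ventral striatum libraries stood apart at miR-181a-5p ratios of 0.769 to 0.777. The 8 amygdala libraries of set 2 were those with the fewest mature reads (363140 to 622110). Its ventral striatum libraries held 739460 to 1229500, so region and depth cannot be told apart within set 2. Set 1 held 16 amygdala and 8 ventral striatum libraries and set 2 the reverse, but each treatment and sex had the same make-up within a region (2 and 1, or 1 and 2). The order of mir-7a-1 and mir-7a-2 was therefore not read as a difference between the loci. The ratio of miR-7b to summed miR-7a-5p had a mean of 0.146 in set 1 and 0.147 in set 2.

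**Figure D2:**
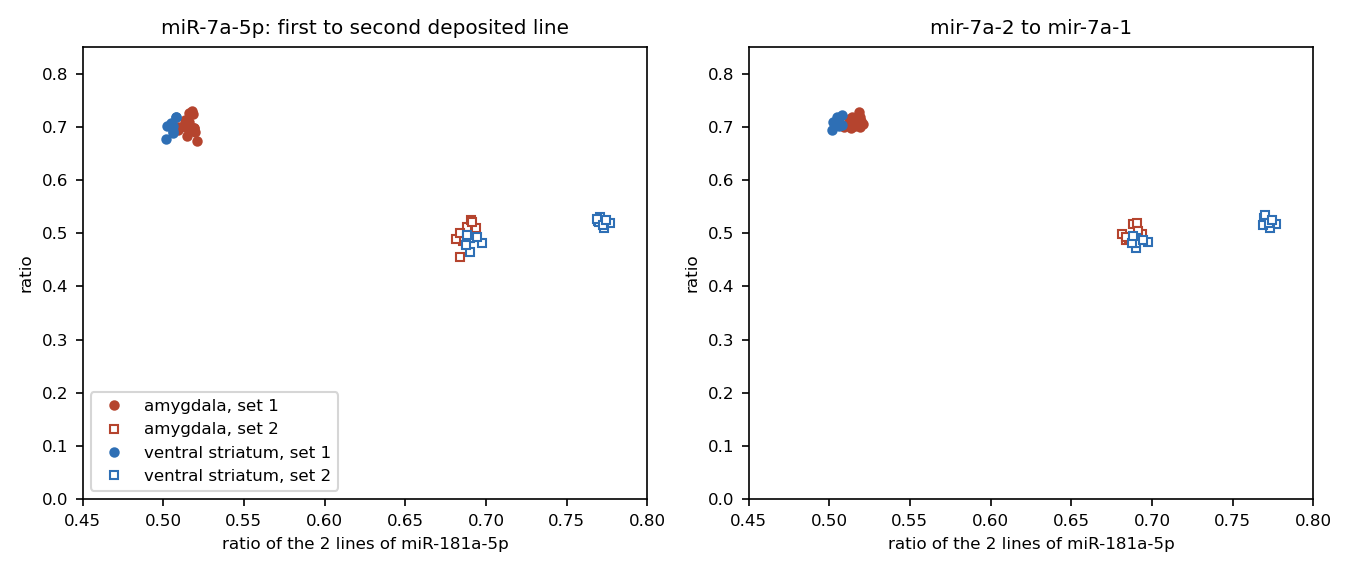
Ratio of the 2 deposited lines of miR-7a-5p (left) and of mir-7a-2 to mir-7a-1 (right) against the ratio of the 2 lines of miR-181a-5p, with 1 point per library (filled, set 1; open, set 2). The libraries of set 1 lie at 0.674 to 0.730 (left) and 0.693 to 0.727 (right), those of set 2 at 0.456 to 0.531 and 0.471 to 0.533, in both regions.

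The first comparison was that of the regions, amygdala minus ventral striatum. miR-7a-5p was 4457 to 17959 RPM in the amygdala (median 10910) and 5062 to 16574 RPM in the ventral striatum (median 11196). miR-7b was 884 to 2803 RPM (median 1543) and 763 to 2380 RPM (median 1607). Both ranges overlapped almost fully. The mean of miR-7a-5p was 11703 ± 3531 RPM in the amygdala and 10699 ± 3094 RPM in the ventral striatum (SD, n = 24 each), and a two-sided permutation test of the means gave p = 0.302. In limma on log2(RPM + 1), adjusted by the Benjamini-Hochberg method over 915 names, the difference was 0.13 (SE 0.14, 95% interval −0.16 to 0.42, adjusted p = 0.550). For miR-7b it was 0.07 (SE 0.13, 95% interval −0.19 to 0.33, adjusted p = 0.739).

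Of the precursors, mir-7a-1 and mir-7b had differences of 0.13 and 0.06 (limma, adjusted p = 0.493 and 0.749). mir-7a-2 was 4183 to 15003 RPM in the amygdala (median 9043) and 3811 to 11506 RPM in the ventral striatum (median 7362). Its difference of 0.30 (SE 0.13, unadjusted p = 0.0302) did not pass after adjustment (limma, adjusted p = 0.0815). With the set of libraries as a term, the differences of mir-7a-1 and mir-7a-2 became 0.21 and 0.21 (limma, adjusted p = 0.257 and 0.245). They were 0.29 and 0.29 within set 1 and 0.13 and 0.12 within set 2. After median-ratio rescaling, mir-7a-2 passed (0.37, limma, adjusted p = 0.0201). It also passed without 1 amygdala library, replicate 1 of the ethanol-exposed, non-enriched females (0.35, limma, adjusted p = 0.0358). Neither of these fits had the set as a term, although the sets were unequally spread over the regions. The ratio of mir-7a-2 to mir-7a-1 had means of 0.709 (amygdala) and 0.708 (ventral striatum) within set 1, and 0.501 and 0.503 within set 2.

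Thus 0 of the 5 names were called between the regions at an adjusted p under 0.05, and 1 had an unadjusted p under 0.05. Over all 915 names, 277 were called (30.3%), of which 80 were higher and 197 lower in the amygdala (112 and 120 after median-ratio rescaling), and 375 had an unadjusted p under 0.05. The median difference was 0.13 for the 5 names and −0.08 for all names. The tests above take the 48 libraries as separate, although the regions share rats, and the labels do not say which pools of the 2 regions hold the same rats. All 24 pairs of consecutive library numbers joined libraries of equal treatment and sex from the 2 regions. The deviations within these pairs had correlations of −0.312 to −0.025 for the 5 names. With the pairs as a random block (limma, consensus correlation 0.0545), 0 of the 5 names were called. The adjusted p in this limma fit was 0.536 for miR-7a-5p, 0.730 for miR-7b, 0.474 for mir-7a-1, 0.071 for mir-7a-2 and 0.738 for mir-7b. With the set of libraries as a further term, mir-7a-2 had a difference of 0.21 (limma, adjusted p = 0.235). In tissue pools, fewer cells of a type and less RNA per cell cannot be told apart.

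The 3p strand of mir-7a-2 did differ between the regions. miR-7a-2-3p was 33.8 to 88.6 RPM in the amygdala (median 62.4) and 25.5 to 62.4 RPM in the ventral striatum (median 35.9). The ranges overlapped, but 23 of the 24 amygdala libraries were above the median of the ventral striatum. The means were 62.9 ± 13.97 and 38.9 ± 10.1 RPM (SD, n = 24 each), 1.61-fold on the log2(RPM + 1) scale (log2 difference 0.68, SE 0.10, limma, adjusted p = 4.84e-06). The strand was low, with 21 to 100 reads per amygdala library and 23 to 70 per ventral striatum library. The difference was 0.67 with the set as a term, 0.85 within set 1 (limma, adjusted p = 0.0148) and 0.49 within set 2 (limma, adjusted p = 0.0933). Within set 2 the amygdala libraries were also those of lower depth. The difference over the 48 libraries was further split by sex and treatment. This difference was 0.48 in females (limma, adjusted p = 0.0696) and 0.88 in males (limma, adjusted p = 0.000413), and the difference between the sexes was not tested. With consecutive numbers as a random block the adjusted p was 2.77e-06 (limma). Within the 4 treatment groups it was 0.50 to 0.91 and passed only in the saline non-enriched libraries (limma, adjusted p = 0.0336).

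Set against the 5p strand of the same libraries, there were 5.74 ± 1.82 miR-7a-2-3p per 1000 miR-7a-5p in the amygdala, against 3.81 ± 0.993 in the ventral striatum (SD, n = 24 each, two-sided permutation test, p = 2e-05). Within set 1 these were 5.97 and 3.77 (permutation test, p = 0.00603) and within set 2 5.28 and 3.83 (permutation test, p = 0.0081). This ratio was chosen after its values were seen. Because miR-7a-5p comes from both miR-7a hairpins, the use of strands and the shares of the 2 hairpins cannot be told apart in it. Deviations of miR-7a-2-3p from cell means had correlations of 0.498 to 0.586 with those of the 5 names. The other 3p strand, miR-7a-1-3p, was near the level of a few reads, at 5.45 ± 3.20 RPM in the amygdala and 5.75 ± 2.86 RPM in the ventral striatum (SD, n = 24 each, limma, adjusted p = 0.749).

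miR-671 was also higher in the amygdala, at 342 ± 53.8 RPM against 276 ± 28.0 RPM (SD, n = 24 each; log2 difference 0.30, SE 0.06, limma, adjusted p = 0.000228). It lay above the ventral striatum median in 22 of 24 amygdala libraries. Its precursor mir-671 differed by 0.32 (limma, adjusted p = 0.000124). In fits to parts of the libraries miR-671 kept its direction but missed the threshold within set 1 (0.31), within males (0.20) and within each of the 4 treatment groups (0.28 to 0.34). Across libraries miR-671 did not follow the family (r = 0.026 with miR-7a-5p and 0.002 with miR-7b, n = 48). The deposited name gives no strand and its sequence was not read. Whether it is the strand that directs the cutting of Cdr1as is therefore not known here.

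**Figure D3:**
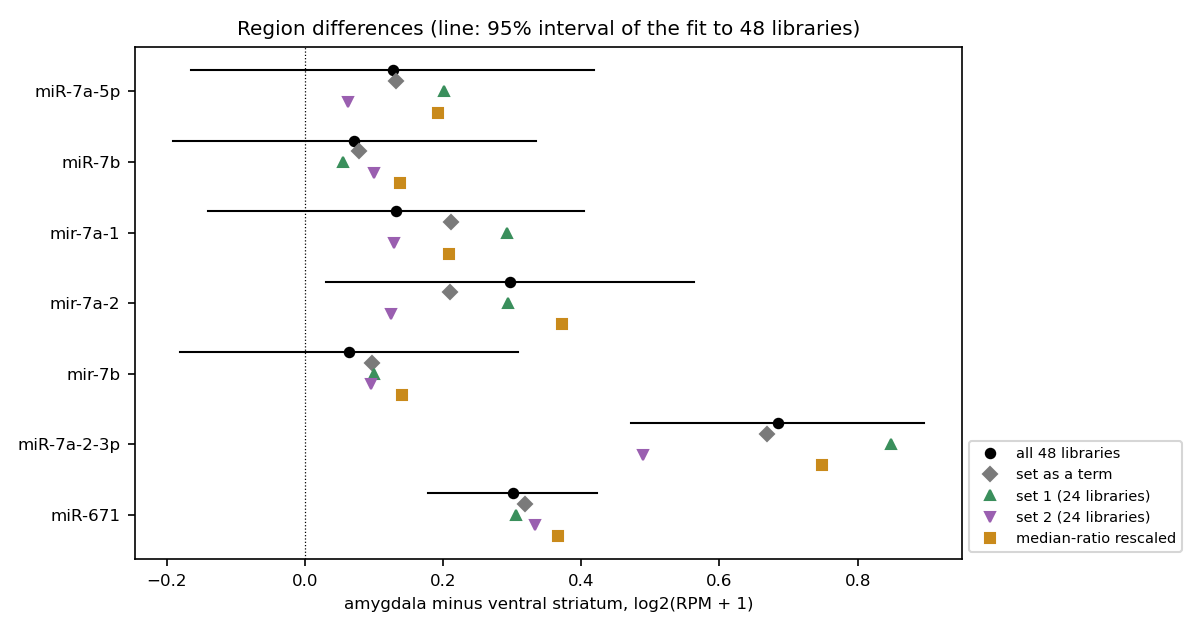
Difference between amygdala and ventral striatum in log2(RPM + 1) for the 5 names and for the related miR-7a-2-3p and miR-671. The black line is the 95% interval of the fit to 48 libraries, and the symbols are the difference in that fit, with the set of libraries as a term, within each set and after median-ratio rescaling. The 5 names lie between 0.06 and 0.30 in the fit to 48 libraries, and mir-7a-2 moves to 0.21 with the set as a term.

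Marker lists of other cells were read against the 30.3% of all 915 names called between the regions (80 higher and 197 lower in the amygdala). The neuron list (5 names, among them miR-124-3p) summed to 29130 to 54792 RPM in the amygdala and 29252 to 56764 RPM in the ventral striatum, with 2 names higher and 1 lower in the amygdala. It marks neurons in general and neither region. The choroid plexus and ependyma list (7 of 8 names found, none at 0 throughout) summed to 3675 to 145270 RPM in the amygdala and 4572 to 12352 RPM in the ventral striatum, with 2 of 7 names higher in the amygdala. Of the other lists, 2 of 2 oligodendrocyte names and 1 of 3 vessel names were lower in the amygdala, and 0 of 4 tested names of microglia and blood cells were called (limma).

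Within cells of the design, the correlations of the 5 names were negative with the summed neuron list (r = −0.343 to −0.251) and the vessel list (r = −0.240 to −0.187) and nearer 0 with the choroid plexus list (r = −0.022 to 0.027), the oligodendrocyte list (r = −0.117 to −0.048) and the microglia and blood list (r = −0.112 to 0.063). For miR-7a-2-3p the farthest value was 0.28 with microglia and blood cells, and it was −0.018 with the choroid plexus list. For miR-671 the values were −0.587 with oligodendrocytes, 0.331 with neurons, 0.28 with microglia and blood cells and −0.188 with the choroid plexus list. All are correlations of deviations from cell means over the 48 libraries, which share library and scale, and the part of these cells in the region values was not tested.

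Neuroendocrine markers were low and uneven. Of the list of neuroendocrine, pituitary and pineal miRNAs, 10 of 11 names were found, and the 9 mature ones summed to 108 to 3583 RPM in the amygdala and 148 to 3246 RPM in the ventral striatum. miR-375-3p, its defining name, ran from 5.09 to 2221 RPM in the amygdala and from 8.85 to 696 RPM in the ventral striatum (log2 difference 1.00, limma, adjusted p = 0.191). Of 9 tested names, which include the precursor mir-375, 0 were higher and 1 was lower in the amygdala, beside 30.3% called over all names. The median log2 difference of these 9 names was −0.22, beside −0.08 over all names, so miR-375-3p did not stand for its list. Deviations of the summed list had correlations of 0.150 to 0.261 with those of the 5 names, and miR-375-3p came in place 63 of the 306 names likened to miR-7a-5p (r = 0.341).

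The next question was whether prenatal ethanol or social enrichment changed the family. Ethanol was set against saline within each housing, N(EvC) and S(EvC), and enriched against non-enriched rats within each prenatal treatment, C(SvN) and E(SvN), with A or V in front for the region. None of the 5 names was called in any of the 8 contrasts. In limma, 0 of 910 names tested were called in each amygdala contrast and 0 of 933 in each ventral striatum contrast (0% in every one), and at an unadjusted p under 0.05 the contrasts had 17 to 41 names, with 0 of the 5 among them. In 40 exact permutation tests of mean RPM (5 names in 8 contrasts, two-sided, over all divisions of 6 and 6 libraries), 0 had a p under 0.05. The smallest was 0.0584, where 0.00216 is the smallest possible, and in all 40 the groups overlapped. Exact tests were run for the 5 names only, so the share of overlapping groups over all names was not counted.

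In the amygdala of non-enriched rats, miR-7a-5p was 6772 to 17959 RPM in controls (median 9868) and 4457 to 14445 RPM after ethanol (median 10748). The log2 difference in A N(EvC) was −0.16 (SE 0.29, 95% interval −0.78 to 0.46, limma, adjusted p = 0.917). The lowest value, 4457 RPM, was that of the ethanol-exposed female replicate 1, and without this library the difference was 0.09. It was 0.01 without the control female replicate 1.

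In enriched rats the amygdala values of miR-7a-5p were 9243 to 17793 RPM in controls (median 12244) and 8404 to 16942 RPM after ethanol (median 11062). The A S(EvC) difference was −0.13 (SE 0.29, limma, adjusted p = 1). The effects of enrichment in the same libraries were 0.21 in A C(SvN) and 0.24 in A E(SvN) (SE 0.29 each, limma, adjusted p = 1 for both). Without the low ethanol-exposed female replicate 1, the latter was −0.01.

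In the ventral striatum, miR-7a-5p was 8734 to 15376 RPM in non-enriched controls (median 13911) and 5412 to 11586 RPM in non-enriched ethanol-exposed rats (median 10901). The highest ethanol-exposed library lay below the control median, but the groups overlapped. Their means were 12768 ± 2566 and 9845 ± 2391 RPM (SD, n = 6 each, exact permutation test, p = 0.0736). The V N(EvC) difference was −0.39 (SE 0.27, 95% interval −0.96 to 0.18, limma, adjusted p = 1). In enriched rats the values were 5062 to 16574 RPM in controls (median 10427) and 6314 to 12395 RPM after ethanol (median 9605), for a difference of −0.16 in V S(EvC) (SE 0.27, limma, adjusted p = 1). Enrichment gave −0.31 in V C(SvN) and −0.08 in V E(SvN) (SE 0.27 each, limma, adjusted p = 1 for both).

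The differences of miR-7b had the sign of those of miR-7a-5p in all 8 contrasts. Its values in the amygdala were 1080 to 2803 RPM in non-enriched controls (median 1405), 884 to 1848 RPM in non-enriched ethanol-exposed rats (median 1510), 1324 to 2514 RPM in enriched controls (median 1590) and 1154 to 2193 RPM in enriched ethanol-exposed rats (median 1730). In the ventral striatum they were 1253 to 2301 RPM (median 1884), 883 to 1775 RPM (median 1507), 763 to 2380 RPM (median 1677) and 973 to 1766 RPM (median 1363) in that order. Every pair of groups overlapped. Its log2 differences were −0.18 in A N(EvC), −0.02 in A S(EvC), 0.09 in A C(SvN) and 0.25 in A E(SvN), and −0.29, −0.23, −0.15 and −0.08 in the same order in the ventral striatum (SE 0.25 to 0.26, limma).

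The 3 precursors lay near their mature names in each contrast. Their differences were −0.18 to −0.16 in A N(EvC), −0.13 to 0.03 in A S(EvC), 0.06 to 0.17 in A C(SvN) and 0.21 to 0.25 in A E(SvN). In the ventral striatum they were −0.38 to −0.27 in N(EvC), −0.22 to −0.14 in S(EvC), −0.31 to −0.16 in C(SvN) and −0.11 to −0.06 in E(SvN). The medians over the 5 names were −0.16 in A N(EvC), 0.24 in A E(SvN) and −0.38 in V N(EvC), beside medians over all names of −0.08, 0.04 and 0.01. The lowest exact p, 0.0584, belonged to mir-7a-2 in V N(EvC) (6835 ± 1380 RPM after ethanol and 8917 ± 1960 RPM in controls, SD, n = 6 each). The contrasts of a region share groups, so their directions are not independent.

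**Figure D4:**
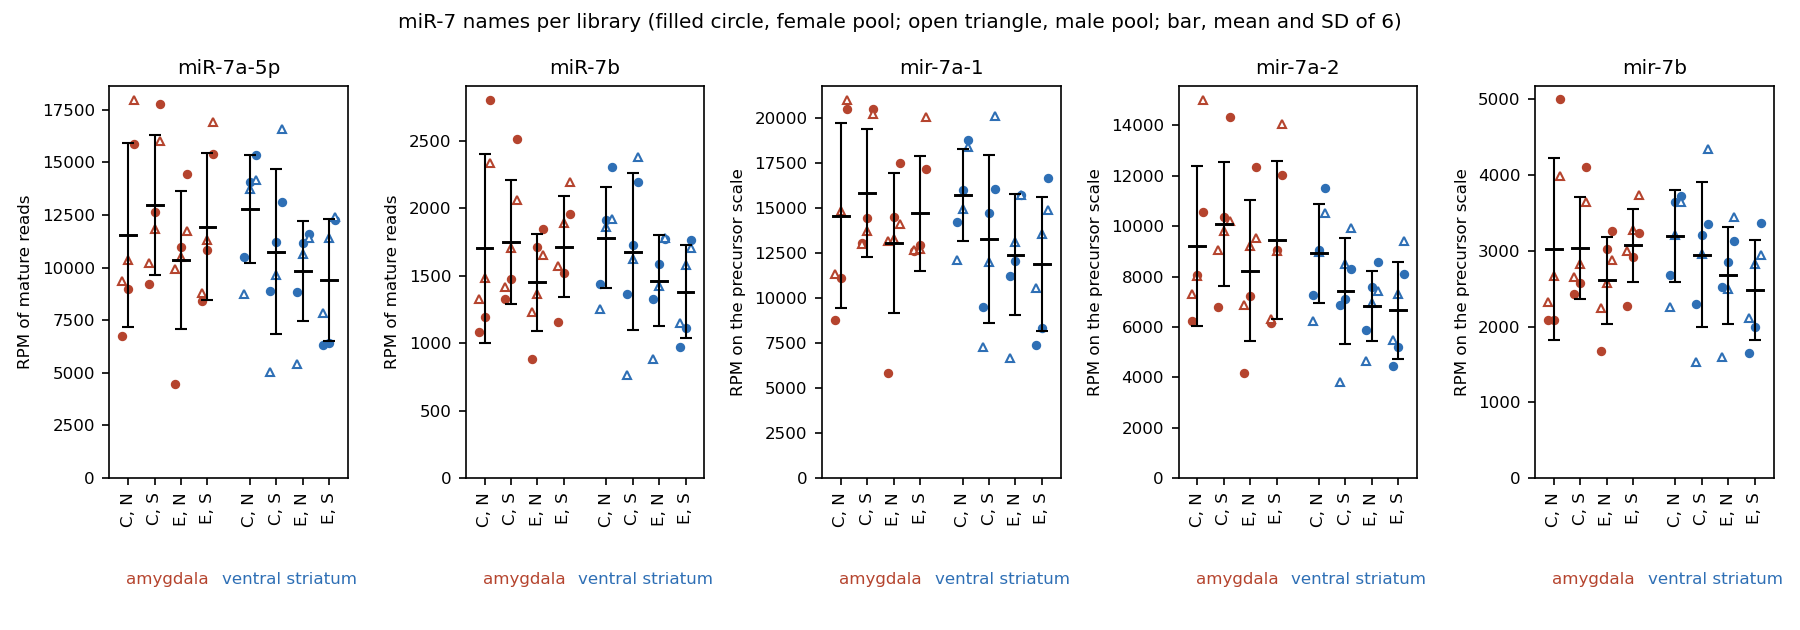
RPM of the 5 names in each library by region and treatment group (C, saline control; E, ethanol; N, non-enriched; S, socially-enriched), on the mature scale for the first 2 panels and on the precursor scale for the others. Horizontal bars are means and error bars SDs of 6 libraries, and the libraries of every pair of groups overlap.

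The intervals show what the libraries could resolve. For miR-7a-5p the 95% interval reached from −0.78 to 0.46 in A N(EvC) and from −0.96 to 0.18 in V N(EvC), so that a fall to 0.583 of the control level in the amygdala or 0.513 in the ventral striatum lay within it, as did a rise to 1.38-fold and 1.13-fold. The ethanol by enrichment interactions [S(EvC) minus N(EvC)] were 0.03 to 0.19 for the 5 names in the amygdala and 0.05 to 0.24 in the ventral striatum, with 0 called (0% of the names tested in either region, limma). The smallest unadjusted p of the 5 was 0.568 for the amygdala and 0.492 for the ventral striatum. Between females and males the differences were −0.06 to 0.00, with 0 of 5 called (0% of 915, limma), and 36 of the 915 names but 0 of the 5 had an unadjusted p under 0.05.

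Of the related strands, miR-7a-2-3p had 0 calls in the 8 contrasts. miR-7a-1-3p was 7.28 ± 3.29 RPM in enriched ethanol-exposed and 3.55 ± 1.93 RPM in enriched control ventral striatum (SD, n = 6 each; V S(EvC) unadjusted p = 0.0228, limma, adjusted p = 1), which is a matter of few reads.

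**Figure D5:**
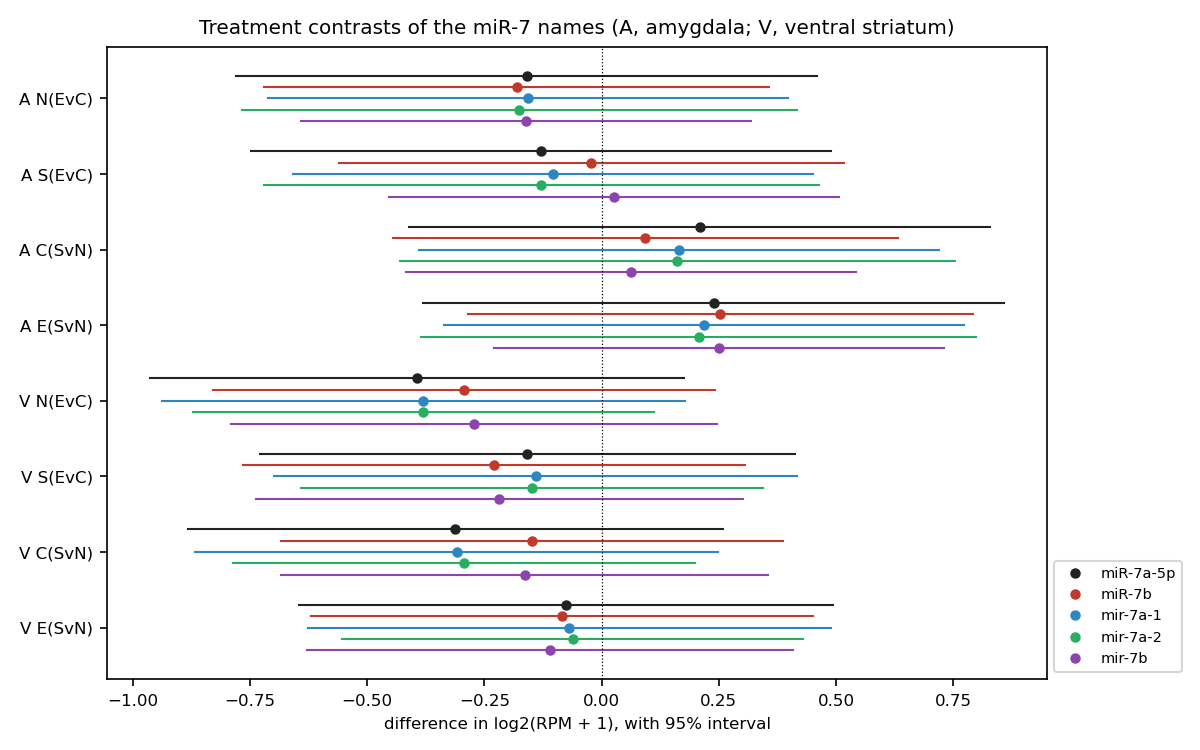
Log2 differences of the 5 names in the 8 treatment contrasts with their 95% intervals from limma. Every interval includes 0, and the farthest value is −0.39 for miR-7a-5p in V N(EvC).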

How the data were processed

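Small RNA libraries (TruSeq) of 48 RNA pools were sequenced by the authors on a MiSeq, quality-trimmed, aligned with Bowtie to Rn5 and quantified in Partek Flow against miRBase. How reads with several loci were divided is not given in the sources used here. The authors deposited a normalized signal in RPM, scaled apart for mature and for precursor names (to 1000000 each in every library). Only these values were used. Mature read counts came from the step that 1 read makes in each library. Reads stem from PCR products, so read counts cover counting error only.

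Names above 0 RPM in at least 6 of 24 libraries of a region, or 12 of 48, entered limma 3.58.1 as log2(RPM + 1) (eBayes with trend, R 4.3.3), with cells of region, treatment and sex as groups, two-sided and Benjamini-Hochberg adjusted over all names (threshold 0.05). The pseudocount makes fold changes of low names too small. Permutation tests (exact for 6 against 6 libraries, 100000 resamples for 24 against 24) were run in Python 3.11.15 with numpy 2.4.6 and pandas 2.3.3. The fit was tested on simulated data. Names given beside the 5 were the other strands of the hairpins, miR-671 names, miR-375 names and, for each of the 5, the 5 names with the highest correlation. The members and lists were chosen with earlier results of these data known. Alternatives covered pseudocounts, filters, rescaling, model, subsets, the replicate number and each library left out, and, added after the values were seen, the sets of libraries. Within a region pools were separate. Both regions came from the same rats, and consecutive library numbers as a random block were an alternative for the regions.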

Additional observations from a re-analysis of the deposited data

Results flagged for a closer look

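In 48 tests of groups of 6 libraries (the 5 names and the ratio of miR-7b to miR-7a-5p in 8 groups), 1 library lay far from the others of its group, where chance gives about 1 in 20 groups. mir-7a-1 was 5844 RPM in the amygdala of the ethanol-exposed, non-enriched female replicate 1, and 13151 to 17500 RPM in the other 5 libraries of that group. The gap to the nearest was 0.627 of the range of the group. The same library held the lowest amygdala values of miR-7a-5p (4457 RPM), miR-7b (884 RPM), mir-7a-2 (4183 RPM) and mir-7b (1682 RPM), and the highest ratio of miR-7b to miR-7a-5p of all 48 libraries (0.198). It held 818324 mature reads.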

How the results depend on the processing

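None of the 5 names passed in the 8 treatment contrasts, the interactions or the sexes under any alternative run. Between regions, mir-7a-2 passed after median-ratio rescaling (0.37, 1 name called) and without 1 library. Over the 48 fits that left a library out, it was 0.24 to 0.35, with 0 to 1 names called. These fits had no term for the set of libraries, and with that term mir-7a-2 was 0.21 (limma, adjusted p = 0.245). The region differences changed sign, each without passing, within saline non-enriched libraries (miR-7a-5p −0.20, miR-7b −0.13, mir-7a-1 −0.17, mir-7b −0.14), within ethanol non-enriched libraries (miR-7b −0.017, mir-7b −0.028) and within females (miR-7b −0.039, mir-7b −0.014). The ratio of miR-7b to miR-7a-5p turned to 0.00451 higher in the amygdala within set 2. In A S(EvC), miR-7b was 0.010 after median-ratio rescaling and 0.11 within set 1, where miR-7a-5p was 0.057. In V C(SvN), miR-7b was 0.015 within set 2. Leaving out 1 library changed the sign of uncalled differences, with ranges for miR-7a-5p of −0.33 to 0.091 in A N(EvC), −0.011 to 0.41 in A E(SvN), −0.38 to 0.050 in V S(EvC) and −0.25 to 0.024 in V E(SvN), and for miR-7b of −0.31 to 0.036 in A N(EvC), −0.12 to 0.12 in A S(EvC), −0.048 to 0.31 in A C(SvN), −0.33 to 0.080 in V C(SvN) and −0.23 to 0.026 in V E(SvN). The cause was not tested. miR-7a-2-3p kept its direction between regions in every alternative, but its adjusted p rose to 0.466 within the 12 saline socially-enriched libraries.

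Deviations of same-numbered libraries of a region had median correlations near 0 (amygdala 0.00068, ventral striatum 0.0018, over 0.1 in 12 and 16 of 36 pairs). Pairs with unlike numbers were not set beside them, so whether the numbers pair libraries was not settled. With the replicate number as a block and no term for the set, mir-7a-2 had an adjusted p of 0.0535 between regions (limma), and no call changed. Depth limits chiefly miR-7a-1-3p and miR-7a-2-3p.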
